A study of Mus musculus with 11 samples.

Results

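Neutrophil granule and surface genes were examined in CD11b-positive myeloid cells taken from irradiated mouse tumours. The set was fixed by symbol as 10 genes, Ngp, Camp, Ltf, Lcn2, S100a8, S100a9, Retnlg, Cd177, Csf3r and Trem1, and all 10 were found among the 22068 gene symbols of the 11 libraries. The libraries came from STAT3KO mice (n = 4), TLR9KO mice (n = 4) and WT mice (n = 3), all C57BL/6. STAT3KO stands for Stat3-/- mice of the MxCre/Stat3flox type, in which Cre is driven by the interferon-responsive Mx promoter and is not limited to myeloid cells. TLR9KO mice were TLR9-/-, and WT mice were labelled wild type, with no statement on whether they carried Cre or the floxed allele. All tumours grew under the skin, were irradiated locally at 15 Gy and were harvested on day 4, and the cells were isolated with antibodies and magnetic beads and not cultured. Every group was irradiated, so the libraries hold no comparison with unirradiated tumours. The tumour line and the age and sex of the mice are not stated, nor is it said that replicates came from separate animals, so p-values measure the spread between these libraries, which may be technical.

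Neutrophils build their granules in sequence while they mature in the bone marrow. The proteases of the primary granules are transcribed first, the specific granule proteins Ngp, Camp, Ltf and Lcn2 later, and most of these transcripts are low again in the mature cell of the blood and tissue. S100a8 and S100a9 form calprotectin, which makes up much of the neutrophil cytosol and is also made by monocytes, while Csf3r and Trem1 are receptors of mature neutrophils that monocytes and some macrophages share. CD11b is carried by neutrophils, monocytes, macrophages and some dendritic cells, so the enriched cells can hold all of them.

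Levels are given as RPKM, a read count scaled by transcript length and by the mapped reads of the library, and differences as log2 differences of RPKM + 1 between group means, with the standard error of a limma model fitted to all genes. A gene passed the test at a Benjamini-Hochberg adjusted p under 0.05 over the 10557 genes that averaged 1 RPKM or more. Stat3 was 15.7 to 19.7 RPKM in the 4 STAT3KO libraries, against 70.7 to 76.1 RPKM in WT. Tlr9 was 3.53 to 7.70 RPKM in TLR9KO, against 20.5 to 41.6 RPKM in WT. Itgam, which encodes CD11b, ranged over 190.5 to 228 RPKM in STAT3KO, over 177 to 328 in TLR9KO and over 294 to 313 in WT. The 6 melanocyte markers summed to 817 to 1262 RPKM in STAT3KO, 474 to 1373 in TLR9KO and 439 to 1430 in WT. Transcripts of a cell type that is not myeloid were thus also present in every library. Depth, estimated from the steps of the values, was 30.0 to 53.4 M reads a library. A single library, STAT3KO replicate 2, stood apart for most of the neutrophil genes. It held 34 gene symbols at least 1 log2 unit above all other libraries, among them 7 of the 10 neutrophil genes, whereas the other libraries held 0 to 9 such symbols and no neutrophil gene. Results of the 10 genes that rest on STAT3KO replicate 2 are therefore given with and without it, and calls of other genes that were lost without it are named as such.

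The data showed 3 patterns. The granule genes Ngp, Camp, Ltf and Lcn2, with S100a8, S100a9 and Retnlg, had by far their highest level in STAT3KO replicate 2. Trem1, a receptor that amplifies innate inflammatory signals, fell in both knockouts and was lowest in STAT3KO. Csf3r, the receptor for the granulocyte growth factor G-CSF, did not pass the test in any comparison. Against WT, 1 of the 10 neutrophil genes passed the test in STAT3KO, Trem1, which fell, where 29.2% of all tested genes rose and 14.8% fell. Trem1 was again the 1 gene that passed in TLR9KO against WT, where 20% of all tested genes rose and 10.6% fell. In STAT3KO against TLR9KO Cd177 and Retnlg rose and Trem1 fell, where 13.4% of all tested genes rose and 9.46% fell. Without STAT3KO replicate 2, 7 of the 10 genes could be tested. In that fit Lcn2 and Trem1 fell in STAT3KO against WT, where 28.2% of all tested genes rose and 13.6% fell. Cd177 and Trem1 fell in TLR9KO against WT, where 20.5% rose and 11.1% fell. Cd177 and Retnlg rose and Trem1 fell in STAT3KO against TLR9KO, where 10.3% rose and 6.86% fell. Both comparisons with WT share the 3 WT libraries.

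**Figure D1:**
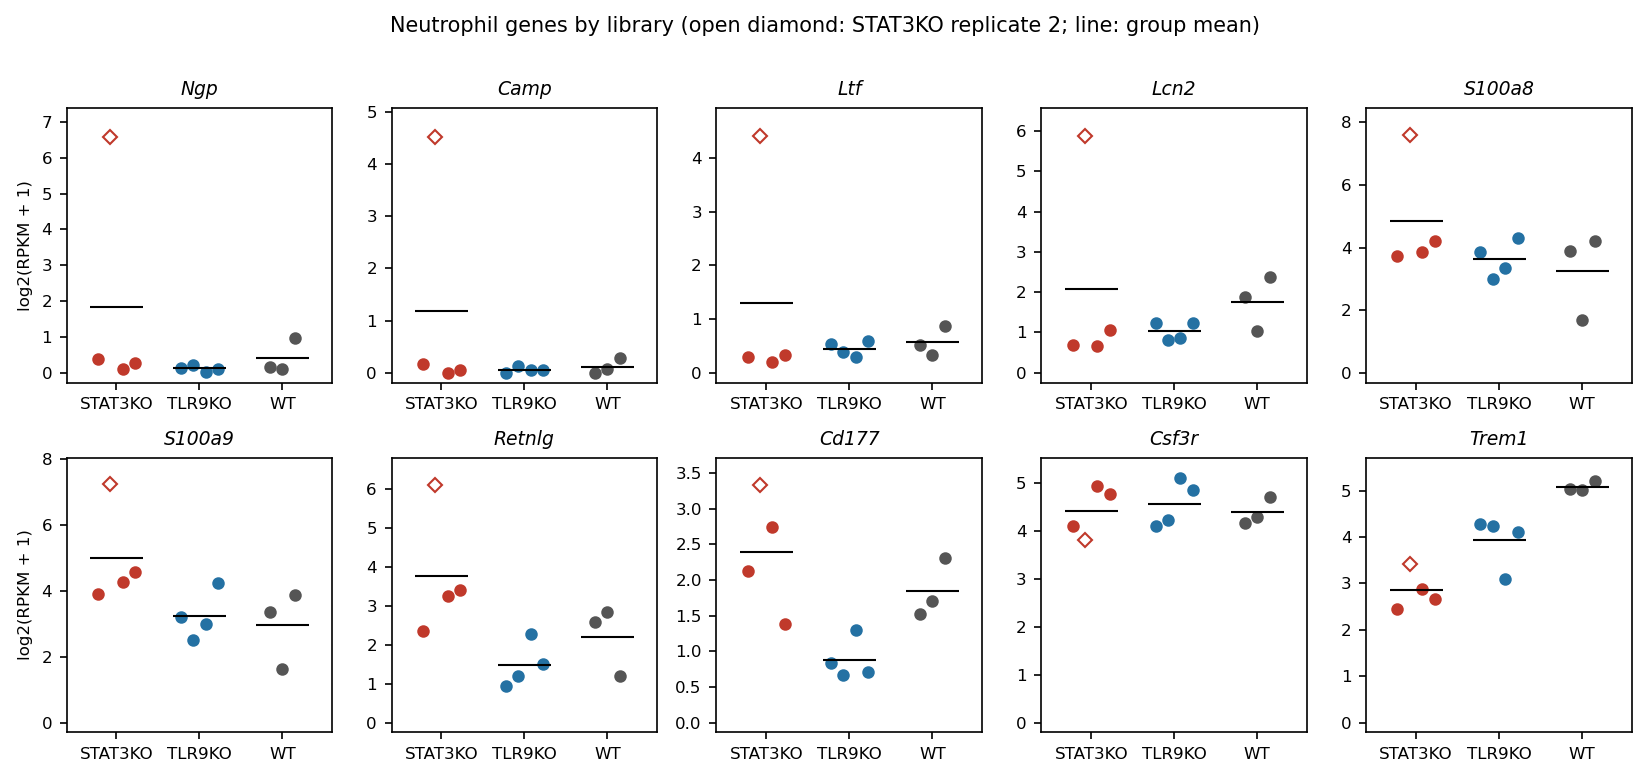
Level of the 10 neutrophil genes in each library as log2(RPKM + 1), each panel with its own vertical axis, with STAT3KO, TLR9KO and WT from left to right. Each point is 1 library, the short line is the group mean and the open diamond is STAT3KO replicate 2. The diamond lies above all other libraries for 8 of the 10 genes, and for Csf3r it is the lowest point, at 12.98 RPKM.

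Ngp, a cystatin-like protein of specific granules, was 0.30, 95.0, 0.08 and 0.20 RPKM in STAT3KO replicates 1 to 4, against 0.09, 0.17, 0.02 and 0.07 RPKM in TLR9KO and 0.11, 0.07 and 0.94 RPKM in WT. At the estimated depths these values stand for about 3800.3 reads in STAT3KO replicate 2 and for 1 to 43.2 reads in each of the other 10 libraries. STAT3KO replicate 2 thus held 97.9% of the summed Ngp signal and exceeded the highest other library, WT replicate 3, by 101-fold. Among all 22068 symbols, Ngp had the largest excess of STAT3KO replicate 2 over the highest other library.

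Camp, which encodes the mouse cathelicidin CRAMP, an antimicrobial peptide, was 0.12, 21.9, 0.00 and 0.04 RPKM in STAT3KO, against 0.00, 0.09, 0.04 and 0.04 RPKM in TLR9KO and 0.00, 0.05 and 0.22 RPKM in WT. It was thus listed at 0 in 1 library of each group, and outside STAT3KO replicate 2 its values rest on at most 6.3 reads. Ltf, the iron-binding protein lactoferrin, was 0.23, 20.2, 0.15 and 0.25 RPKM in STAT3KO, against 0.45, 0.30, 0.22 and 0.51 RPKM in TLR9KO and 0.43, 0.26 and 0.83 RPKM in WT. Without replicate 2, the 3 STAT3KO libraries lay at 0.15 to 0.25 RPKM of Ltf and the lowest WT library at 0.26 RPKM, too low to be tested. Camp and Ltf ranked 2 and 4 among all symbols by the excess of STAT3KO replicate 2.

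Lcn2, which binds bacterial siderophores and is made by neutrophils and by stimulated macrophages, was 0.60, 58.0, 0.57 and 1.09 RPKM in STAT3KO, against 1.37, 0.76, 0.83 and 1.34 RPKM in TLR9KO and 2.70, 1.05 and 4.15 RPKM in WT. With all libraries the groups overlapped, and the STAT3KO minus WT difference was 0.31 ± 1.04 (limma adjusted p = 0.834). Without STAT3KO replicate 2 the difference was -0.97 ± 0.29 and passed the test (limma adjusted p = 0.0229), with 1 of the 3 remaining STAT3KO libraries inside the WT range. The direction of the Lcn2 difference thus turned on 1 library. Against TLR9KO, the STAT3KO difference of Lcn2 ran from -0.24 to 1.5 when single libraries were left out.

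With STAT3KO replicate 2 in the average, Ngp, Camp and Ltf passed the filter of 1 RPKM, and without it they did not, so their tests rest on that library. The STAT3KO minus WT differences were 1.43 ± 1.27 for Ngp (limma adjusted p = 0.390), 1.06 ± 0.89 for Camp (0.360) and 0.73 ± 0.83 for Ltf (0.505), and none passed. For TLR9KO against WT nothing is read from the tests of Ngp, Camp and Ltf, since STAT3KO replicate 2 also sets the spread of these genes. Lcn2 did not pass in that comparison, and without STAT3KO replicate 2 it differed by -0.72 ± 0.27 (limma adjusted p = 0.0665). Within the 10 other libraries Ltf and Lcn2 kept a ratio of 0.159 to 0.395, and in STAT3KO replicate 2 the ratio was 0.348. In these bulk samples, more cells of a type and more RNA of a gene per cell cannot be told apart.

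**Figure D2:**
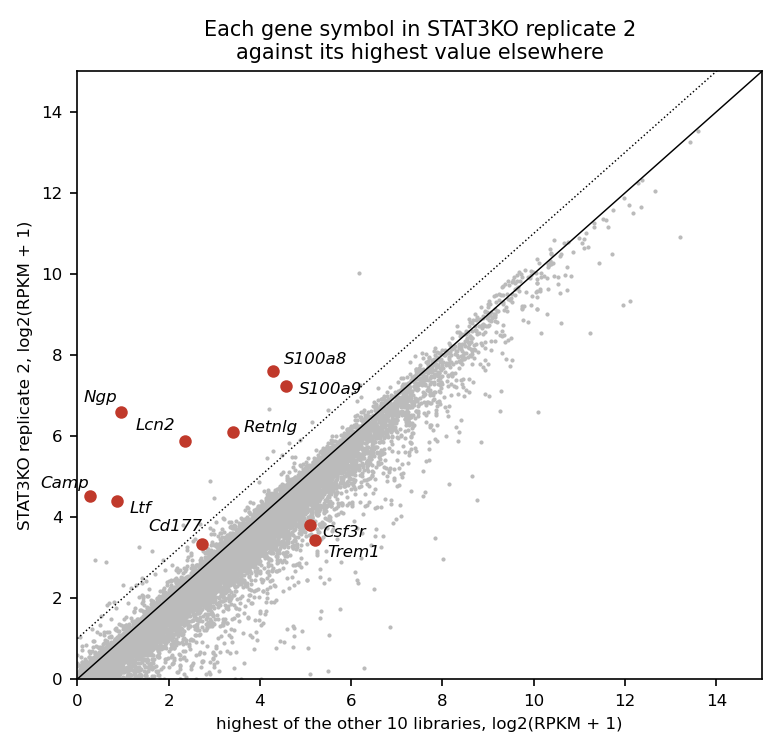
Level of each gene symbol as log2(RPKM + 1) in STAT3KO replicate 2 (vertical axis) against the highest of the other 10 libraries (horizontal axis), with the 10 neutrophil genes in red. The solid line marks equal values and the dotted line an excess of 1 log2 unit. Ngp lies farthest above the line, at 95.0 RPKM against 0.94 RPKM, while Csf3r and Trem1 lie below it.

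The windows of 250 bases upstream of the transcription start of the 4 granule genes are shown because these genes were high in the same library, and that of Trem1 because it passed the test in all comparisons. They come from RefSeq (GRCm38.p6) and run 5′ to 3′ on the strand of the gene. The positions are chr9:110419558-110419807 (+) for Ngp, chr9:109849457-109849706 (-) for Camp, chr9:111019042-111019291 (+) for Ltf, chr2:32387740-32387989 (-) for Lcn2 and chr17:48232489-48232738 (+) for Trem1. Capitals mark the letters TTGCNNAA, a form of the C/EBP motif, or TTCNNNGAA, the STAT motif, on either strand.
Ngp: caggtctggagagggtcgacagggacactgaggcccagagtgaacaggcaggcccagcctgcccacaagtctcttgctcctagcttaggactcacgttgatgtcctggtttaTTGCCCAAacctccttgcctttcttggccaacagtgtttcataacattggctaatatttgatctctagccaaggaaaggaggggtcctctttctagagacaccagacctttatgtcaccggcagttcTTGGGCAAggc
Camp: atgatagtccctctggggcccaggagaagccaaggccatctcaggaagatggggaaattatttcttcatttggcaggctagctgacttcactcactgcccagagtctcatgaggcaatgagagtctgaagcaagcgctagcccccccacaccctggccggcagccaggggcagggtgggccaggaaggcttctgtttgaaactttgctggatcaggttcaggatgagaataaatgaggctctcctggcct
Ltf: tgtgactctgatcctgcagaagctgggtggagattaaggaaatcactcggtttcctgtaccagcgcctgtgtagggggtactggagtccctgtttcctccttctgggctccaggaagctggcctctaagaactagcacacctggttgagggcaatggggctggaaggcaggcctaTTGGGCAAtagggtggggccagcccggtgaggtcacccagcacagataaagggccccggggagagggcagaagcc
Lcn2: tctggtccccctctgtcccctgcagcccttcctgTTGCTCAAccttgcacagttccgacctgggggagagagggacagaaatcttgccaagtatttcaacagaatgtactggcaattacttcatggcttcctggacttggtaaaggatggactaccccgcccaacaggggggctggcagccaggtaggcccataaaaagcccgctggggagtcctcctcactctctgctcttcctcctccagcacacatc
Trem1: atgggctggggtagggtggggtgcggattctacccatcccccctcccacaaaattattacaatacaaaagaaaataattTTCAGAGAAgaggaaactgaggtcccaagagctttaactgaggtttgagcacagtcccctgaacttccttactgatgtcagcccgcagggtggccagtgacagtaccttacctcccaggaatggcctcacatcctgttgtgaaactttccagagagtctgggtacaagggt
The windows of all 10 genes were found in the table. C/EBP letters were in 5 of them, Ngp, Ltf, Lcn2, S100a9 and Retnlg, with 2 matches in Ngp, at 138 and 11 bases before the start. In all 32851 windows of this length, 9.6% held the C/EBP letters. STAT letters were in the Trem1 window alone, 171 bases before the start, and in 7% of all windows. In the windows of Camp, S100a8, Cd177 and Csf3r neither motif was found. Ngp, Camp and Ltf all lie on chromosome 9. A match of letters is a description and does not show that a factor binds there.

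S100a8 and S100a9 were the most abundant of the 10 genes in STAT3KO replicate 2 and were measurable in every library. S100a8 was 12.2, 194, 13.6 and 17.6 RPKM in STAT3KO, against 13.6, 6.88, 9.25 and 18.6 RPKM in TLR9KO and 13.7, 2.21 and 17.4 RPKM in WT. Apart from replicate 2 the 3 groups overlapped, and no test of S100a8 passed (STAT3KO minus WT 1.60 ± 0.89, limma adjusted p = 0.169). S100a9 was 14, 149.8, 18.1 and 23.0 RPKM in STAT3KO, against 8.29, 4.67, 7.03 and 17.7 RPKM in TLR9KO and 9.31, 2.07 and 13.8 RPKM in WT. All 4 STAT3KO libraries lay above all 3 WT libraries for S100a9, a separation that 30.8% of all tested genes showed in this direction. The difference of 2.04 ± 0.77 just missed the threshold (limma adjusted p = 0.0521), and without replicate 2 it was 1.29 ± 0.56 (0.0901). The test passed without STAT3KO replicate 1 (0.0384), without WT replicate 3 (0.0453) and with a pseudocount of 0.1 (0.0495).

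The protein products of S100a8 and S100a9 act as a pair, and their RNA followed each other across libraries. Pearson's r of their log2 values was 0.968 over all 11 libraries and 0.915 over the 10 without STAT3KO replicate 2, given as a description of libraries that share their processing. The ratio of S100a9 to S100a8 was 1.15, 0.771, 1.33 and 1.31 in STAT3KO, against 0.611, 0.679, 0.760 and 0.952 in TLR9KO and 0.682, 0.937 and 0.791 in WT. It was thus above 1 in 3 of the 4 STAT3KO libraries and below 1 in replicate 2 and in every library of the other groups.

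Retnlg, a resistin-like protein secreted by mouse neutrophils, was 4.06, 67.6, 8.45 and 9.61 RPKM in STAT3KO, against 0.92, 1.3, 3.82 and 1.81 RPKM in TLR9KO and 5.02, 6.16 and 1.28 RPKM in WT. Every STAT3KO library lay above every TLR9KO library, a separation that 16.4% of all tested genes showed in this direction. The STAT3KO minus TLR9KO difference was 2.30 ± 0.69 (limma adjusted p = 0.0348). Without replicate 2 it was 1.52 ± 0.44 and still passed (0.0408). When other single libraries were left out, it did not pass without STAT3KO replicate 4 (0.0611). It also did not pass without TLR9KO replicate 1 (0.0729), 2 (0.0807) or 4 (0.0749). Against WT the STAT3KO difference was 1.57 ± 0.74 (limma adjusted p = 0.111), and it passed without STAT3KO replicate 1 (0.0456).

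Csf3r encodes the G-CSF receptor, which drives the growth and release of neutrophils and signals through JAK kinases and STAT3. It was 16.1, 12.98, 29.6 and 26.0 RPKM in STAT3KO, against 16.1, 17.7, 33.2 and 27.7 RPKM in TLR9KO and 16.8, 18.5 and 25.1 RPKM in WT. The group means were 21.2 ± 7.91 RPKM in STAT3KO (SD, n = 4), 23.6 ± 8.15 RPKM in TLR9KO (n = 4) and 20.1 ± 4.36 RPKM in WT (n = 3), with wide overlap. No difference passed the test: STAT3KO minus WT was 0.02 ± 0.31 (limma adjusted p = 0.97), and the values were 0.18 ± 0.31 (0.684) for TLR9KO minus WT and -0.16 ± 0.28 (0.705) for STAT3KO minus TLR9KO. The library with the highest granule genes, STAT3KO replicate 2, had the lowest Csf3r level of all 11 libraries.

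Cd177 encodes a surface glycoprotein of neutrophils that in human cells binds the endothelial adhesion molecule PECAM1. It was 3.35, 9.12, 5.68 and 1.61 RPKM in STAT3KO, against 0.78, 0.58, 1.46 and 0.63 RPKM in TLR9KO and 1.86, 2.26 and 3.94 RPKM in WT. TLR9KO was thus lowest, below every library of the other groups, and STAT3KO and WT overlapped. The STAT3KO minus TLR9KO difference was 1.52 ± 0.35 (limma adjusted p = 0.0124) and 1.21 ± 0.31 without replicate 2 (0.0252). The TLR9KO minus WT difference of -0.97 ± 0.38 did not pass with all libraries (limma adjusted p = 0.0774), although the groups did not overlap, as for 13.3% of all tested genes in this direction. It passed without STAT3KO replicate 2, which enters the shared estimate of the spread (0.0361), without STAT3KO replicate 4 (0.0311) and when the fit held these groups alone (0.0194). STAT3KO minus WT was 0.55 ± 0.38 (limma adjusted p = 0.268), and it passed without STAT3KO replicate 4 (0.0444).

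Trem1, triggering receptor expressed on myeloid cells 1, pairs with the adaptor DAP12 and amplifies the response of neutrophils and monocytes to bacterial products. It was 4.47, 9.72, 6.39 and 5.36 RPKM in STAT3KO, against 18.5, 17.9, 7.57 and 16.2 RPKM in TLR9KO and 31.7, 31.2 and 35.8 RPKM in WT. All knockout libraries lay below all WT libraries, a separation that 16.9% of all tested genes showed in STAT3KO and 13.3% in TLR9KO in this direction. Trem1 averaged 6.49 ± 2.29 RPKM in STAT3KO (SD, n = 4) and 32.9 ± 2.50 RPKM in WT (SD, n = 3), so that STAT3KO held 19.7% of the WT level, a difference of -2.22 ± 0.29 (limma adjusted p = 0.000185). TLR9KO averaged 15.0 ± 5.08 RPKM (SD, n = 4), or 45.7% of WT, a difference of -1.15 ± 0.29 (limma adjusted p = 0.0117).

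Between the knockouts the Trem1 difference was -1.08 ± 0.26 (limma adjusted p = 0.0153), STAT3KO being lower. These groups overlapped in STAT3KO replicate 2, which had the highest Trem1 of its group, and TLR9KO replicate 3, which had the lowest of its own. Without STAT3KO replicate 2 they did not overlap, as for 11.6% of all tested genes in this direction, and the difference was -1.26 ± 0.26 (limma adjusted p = 0.0104). The 3 calls of Trem1 held in every alternative run. Marker lists of other cell types also differed between the groups. The 7 dendritic cell markers summed to 27.2 to 61.2 RPKM in STAT3KO, 78.5 to 149 in TLR9KO and 138 to 210.3 in WT, with none of the 7 at 0 in all libraries of a group. Most of that sum was Itgax, which encodes CD11c, at 21.8 to 52.2 RPKM in STAT3KO, 66.0 to 132 in TLR9KO and 127 to 191 in WT, and it fell in STAT3KO against WT (limma adjusted p = 0.000236). Other markers on the list differed from it. Zbtb46 rose in STAT3KO against TLR9KO (limma adjusted p = 0.0299), and Flt3, too low to be tested, was 0.32 to 1.48 RPKM in STAT3KO, 0.14 to 0.43 in TLR9KO and 0.12 to 0.31 in WT. The 9 macrophage markers summed to 5866 to 7579 RPKM in STAT3KO, 4205 to 7098 in TLR9KO and 4185 to 4996 in WT. In STAT3KO against WT 6 of the 9 rose and Mrc1 fell, where 29.2% of all tested genes rose and 14.8% fell. Without STAT3KO replicate 2, 4 rose and Mrc1 fell, where 28.2% of all tested genes rose and 13.6% fell. Against TLR9KO, Mrc1 fell and Cd68 rose in STAT3KO, where 9.46% of all tested genes fell and 13.4% rose. Emr1 rose there as well once STAT3KO replicate 2 was left out, where 10.3% of all tested genes rose. With all libraries, no dendritic cell or macrophage marker passed the test in TLR9KO against WT, where 20% of all tested genes rose and 10.6% fell. Without STAT3KO replicate 2, Itgax fell in that comparison, where 11.1% of all tested genes fell. The fibroblast and erythroid lists moved in both knockouts. The 6 fibroblast markers summed to 12.02 to 26.4 RPKM in STAT3KO, 8.41 to 37.4 in TLR9KO and 1.38 to 3.38 in WT. The 3 that were tested rose in both knockouts against WT, where 29.2% of all tested genes rose in STAT3KO and 20% in TLR9KO. All 4 tested erythroid markers fell, with a median of -2.82 in STAT3KO against WT and of -3.79 in TLR9KO against WT. Of all tested genes 14.8% and 10.6% fell in these comparisons. The part of these cells in the Trem1 difference was not tested.

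**Figure D3:**
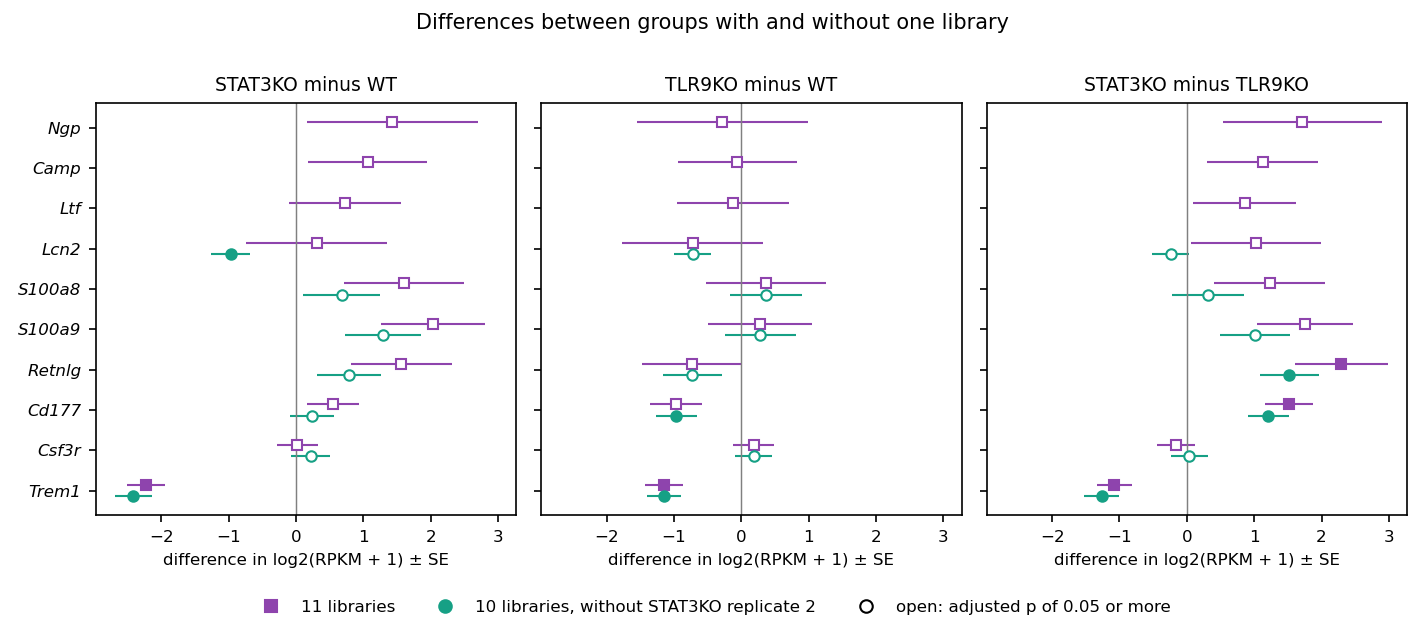
Log2 differences of RPKM + 1 of the 10 neutrophil genes in the 3 comparisons, with bars of 1 standard error. Squares are fits of all 11 libraries, circles fits of the 10 without STAT3KO replicate 2, and open symbols mark an adjusted p of 0.05 or more. Trem1 lies below 0 with filled symbols in every panel, at -2.22 in STAT3KO against WT, and the circle and the square of Lcn2 lie on opposite sides of 0 in that panel. Ngp, Camp and Ltf have no circle, since they did not reach the filter without that library.

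The granule genes were set against the surface genes within each library, as the mean log2(RPKM + 1) of Ngp, Camp, Ltf and Lcn2 minus that of Cd177, Csf3r and Trem1. The level difference was -2.51, 1.82, -3.28 and -2.51 in STAT3KO, against -2.6, -2.65, -2.85 and -2.72 in TLR9KO and -2.93, -3.28 and -2.95 in WT. The granule genes thus lay below the surface genes in 10 libraries and above them in STAT3KO replicate 2 alone. The surface genes of that library, at a mean of 3.52, lay inside the range of the others, 2.89 to 4.07, whereas its granule mean of 5.35 lay far above their 0.24 to 1.12.

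The surface genes also differed in their balance. The ratio of Trem1 to Csf3r was 0.277, 0.749, 0.216 and 0.206 in STAT3KO, against 1.15, 1.01, 0.228 and 0.584 in TLR9KO and 1.89, 1.69 and 1.43 in WT. Trem1 thus exceeded Csf3r in every WT library and in no STAT3KO library. The ratio of Cd177 to Csf3r was 0.208, 0.703, 0.192 and 0.0619 in STAT3KO, against 0.0484, 0.0328, 0.0440 and 0.0228 in TLR9KO and 0.111, 0.122 and 0.157 in WT, so that every TLR9KO library lay below every other.

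**Figure D4:**
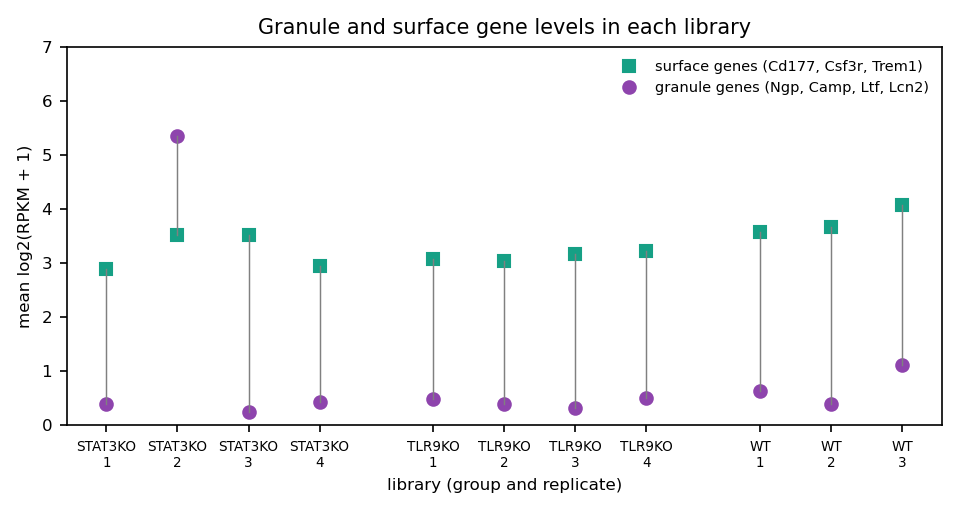
Mean log2(RPKM + 1) of the 3 surface genes (squares) and the 4 granule genes (circles) in each library, joined by a line, with STAT3KO, TLR9KO and WT from left to right. The circle lies above the square in STAT3KO replicate 2 alone, at 5.35 over 3.52, and the circles of the other 10 libraries lie between 0.24 and 1.12.

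Other genes of STAT3KO replicate 2 were read by their rank of excess over the highest other library. Chi3l3, the chitinase-like protein Ym1 of specific granules and of some macrophages, ranked 3, at 1043 RPKM in that library and 26.6 to 71.2 RPKM in the other 10. Fkbp5, a chaperone induced by glucocorticoids, ranked 10, at 100.4 RPKM against 7.56 to 17.3 RPKM. The granule genes Pglyrp1 and Hp ranked 16 and 17. Lyve1, a hyaluronan receptor of lymphatic vessels and some macrophages, ranked 12, at 28.7 RPKM against 0.20 to 6.51 RPKM. The 5 erythroid markers summed to 49.6 RPKM in STAT3KO replicate 2 and to 2.72 to 9.39 RPKM in the other STAT3KO libraries, against 0.56 to 3.31 in TLR9KO and 42.6 to 168.8 in WT, and none of the 5 was at 0 in all libraries of a group. The 7 inflammatory monocyte markers, which include Chi3l3, summed to 2667 RPKM in it and 914 to 2835 RPKM in the other STAT3KO libraries, against 787 to 1310 in TLR9KO and 495 to 773 in WT. They went both ways. In STAT3KO against WT Ly6c2 and Plac8 rose and Vcan fell, where 29.2% of all tested genes rose and 14.8% fell. Plac8 did not pass without STAT3KO replicate 2. Ccr2 was 26.0 RPKM in STAT3KO replicate 2 and 34.1 to 127 RPKM in the other libraries. The 7 keratinocyte markers summed to 0.06 to 0.24 RPKM over all libraries, with Krt14, Krt1 and Trp63 at 0 throughout. The part of red blood cells or monocytes in the excess was not tested.

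Genes of the primary granules, the first to be filled, were near 0 in all groups. Mpo, Elane, Prtn3, Ctsg and Ms4a3 together summed to 0.36 to 1.3 RPKM in STAT3KO, 0.49 to 1.29 in TLR9KO and 0.37 to 1.46 in WT, and none reached the filter. The sum of 1.3 RPKM was that of STAT3KO replicate 2, and the other STAT3KO libraries lay at 0.36 to 0.44 RPKM. Replicate 2 was thus the highest of its group here too, but inside the WT range. Elane, neutrophil elastase, was listed at 0 in every TLR9KO library and was at most 0.19 RPKM elsewhere, in STAT3KO replicate 2. That library therefore had the 4 specific granule transcripts at 20.2 to 95.0 RPKM and each of the 5 primary granule transcripts below 1 RPKM.

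Of 10 further genes of the specific and gelatinase granules, 7 were tested, and none rose or fell in any comparison with all libraries. Of all tested genes 29.2% rose and 14.8% fell in STAT3KO against WT, and 20% and 10.6% in TLR9KO against WT. In STAT3KO against TLR9KO these shares were 13.4% and 9.46%. Hp, haptoglobin, was 7.53, 48.2, 8.20 and 5.16 RPKM in STAT3KO, against 7.99, 7.44, 8.32 and 7.80 RPKM in TLR9KO and 18.3, 13.3 and 18.6 RPKM in WT. Pglyrp1, a peptidoglycan-binding protein, was 2.6, 21.3, 4.37 and 2.86 RPKM in STAT3KO, against 1.31, 0.95, 2.91 and 1.87 RPKM in TLR9KO and 4.14, 4.19 and 6.99 RPKM in WT. In both, replicate 2 was the highest of all libraries, and the other STAT3KO libraries overlapped WT for Pglyrp1. Without replicate 2, Hp fell in STAT3KO against WT (limma adjusted p = 0.000533), and Hp (0.00165), Chi3l3 (0.0416) and Pglyrp1 (0.00725) fell in TLR9KO against WT, where 13.6% and 11.1% of all tested genes fell.

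Of 10 further cytosolic and secreted neutrophil genes 4 were tested. In STAT3KO against WT 1 rose and 1 fell, where 29.2% of all tested genes rose and 14.8% fell. In TLR9KO against WT none passed (20% and 10.6% of all tested genes), and in STAT3KO against TLR9KO 1 rose (13.4% of all tested genes). Padi4, the enzyme that citrullinates histones in neutrophil extracellular traps, was 13.9, 19.7, 24.7 and 15.7 RPKM in STAT3KO, against 8.65, 5.15, 2.50 and 5.29 RPKM in TLR9KO and 6.93, 6.75 and 6.94 RPKM in WT. Every STAT3KO library was higher than every other, a separation that 30.8% of all tested genes showed against WT and 16.4% against TLR9KO in this direction, with a rise of 1.28 ± 0.28 against WT (limma adjusted p = 0.00410) and 1.67 ± 0.26 against TLR9KO (0.00180). 1100001G20Rik, a secreted protein with a protease inhibitor fold, was 0.13, 4.33, 0.00 and 0.19 RPKM in STAT3KO, against 7.21, 2.25, 1.79 and 2.21 RPKM in TLR9KO and 11.0, 2.68 and 5.28 RPKM in WT. It fell in STAT3KO against WT by 2.00 on the log2 scale (SE 0.61, limma adjusted p = 0.0206), a call lost without STAT3KO replicate 1, 3 or 4 or WT replicate 1 or 3 (0.0502 to 0.0913). Without STAT3KO replicate 2, the highest of its group, the limma adjusted p was 0.00180. In that fit 1100001G20Rik also fell in STAT3KO against TLR9KO, where 6.86% of all tested genes fell.

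Other receptors used by neutrophils went both ways. Of the 9 listed receptors found, 6 were tested, and in STAT3KO against WT 3 rose and 2 fell, where 29.2% of all tested genes rose and 14.8% fell, with a median of 0.59 over the 6 and of 0.095 over all tested genes. Fpr1, a receptor for bacterial formyl peptides, was 3.48, 4.14, 4.07 and 5.21 RPKM in STAT3KO, against 1.62, 0.62, 0.82 and 0.83 RPKM in TLR9KO and 1.7, 0.51 and 1.53 RPKM in WT. It rose against WT by 1.25 ± 0.22 (limma adjusted p = 0.00104) and against TLR9KO by 1.42 ± 0.20 (0.00108). Fpr2, its relative, rose against WT by 1.25 ± 0.31 (limma adjusted p = 0.00783), and the lectin receptor Clec4d by 1.5 ± 0.43 (0.0164). With a correction for GC content and transcript length neither Fpr2 (0.12) nor Clec4d (0.208) passed. Against TLR9KO, Fpr2 rose by 1.01 ± 0.29 (limma adjusted p = 0.0289) and Clec4d by 1.22 ± 0.40 (0.0486). Without STAT3KO replicate 2 the difference was 0.79 for Fpr2 (limma adjusted p = 0.0704) and 1.29 for Clec4d (0.0764). Other alternatives ended these calls too, 6 of 21 in all for Fpr2 and 14 of 21 for Clec4d.

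Il1r2, the interleukin 1 decoy receptor, was 14.7, 18.6, 16.7 and 11.7 RPKM in STAT3KO, against 35.3, 44.9, 30.0 and 38.9 RPKM in TLR9KO and 58.9, 49.2 and 51.7 RPKM in WT. Ltb4r1, the receptor for the neutrophil attractant leukotriene B4, was 15.9, 20.3, 18.6 and 15.8 RPKM in STAT3KO, against 73.5, 79.0, 57.9 and 78.3 RPKM in TLR9KO and 100.9, 93.7 and 116 RPKM in WT. Both showed the order of Trem1, STAT3KO below TLR9KO below WT, with no overlap between the groups. In this direction 16.9% of all tested genes were separated in STAT3KO against WT, 13.3% in TLR9KO against WT and 10.6% in STAT3KO against TLR9KO. In STAT3KO against WT Il1r2 fell by 1.74 on the log2 scale (limma adjusted p = 2.65e-05) and Ltb4r1 fell by 2.49 (4.06e-06). In TLR9KO against WT these were the 2 receptors that passed, with falls of 0.51 for Il1r2 (limma adjusted p = 0.0311) and 0.52 for Ltb4r1 (0.0120). In that comparison 10.6% of all tested genes fell. The call of Il1r2 was lost in 6 of 21 alternatives. Among them were the fits without WT replicate 1 (0.121) or 3 (0.0705) or TLR9KO replicate 1 (0.0534) or 3 (0.0743). That of Ltb4r1 was lost in 2, among them the fit without WT replicate 3 (0.0555). The chemokine receptors that guide blood neutrophils were low in all groups. Cxcr2 was at most 1.61 RPKM and Cxcr1 at most 0.36 RPKM in every library. Ly6g was not analysed here.

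**Figure D5:**
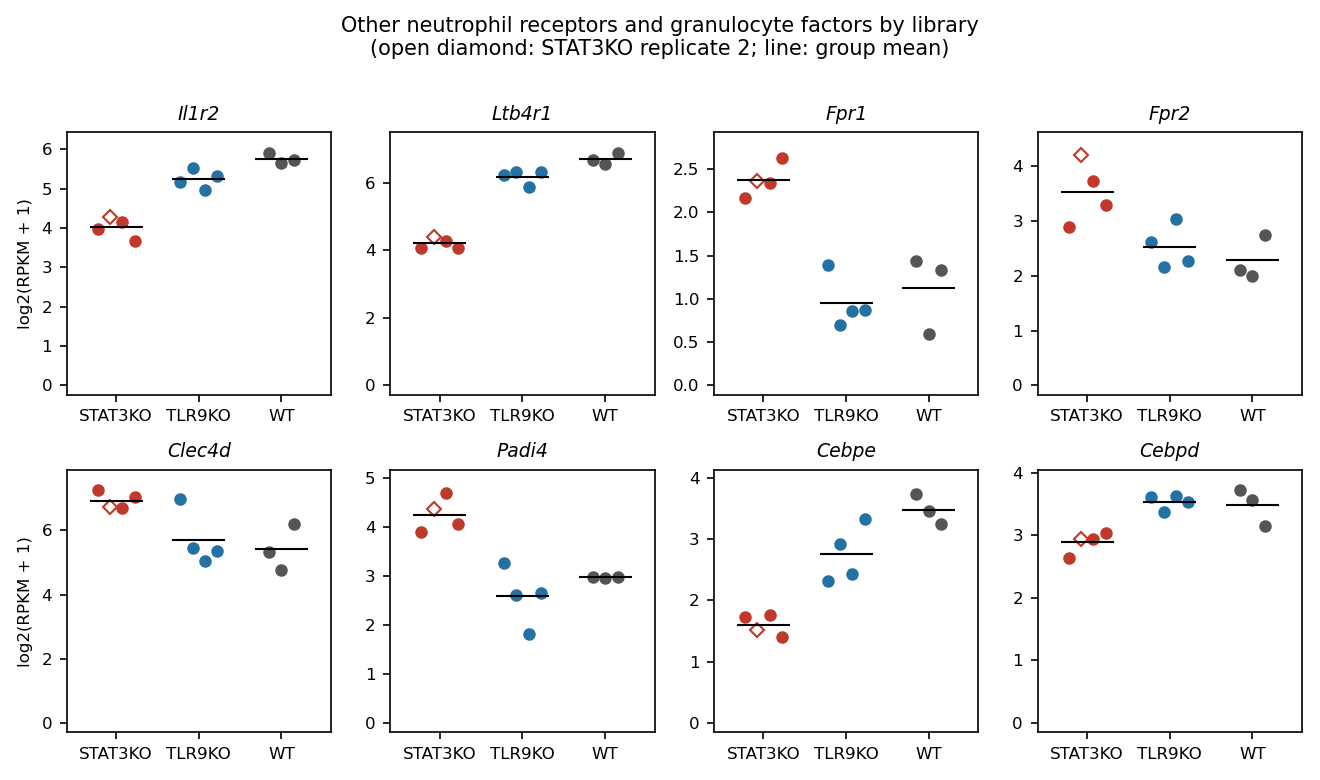
Level of 8 further genes in each library as log2(RPKM + 1), each panel with its own vertical axis, with STAT3KO, TLR9KO and WT from left to right, a line at each group mean and an open diamond for STAT3KO replicate 2. Il1r2, Ltb4r1, Cebpe and Cebpd are lower in STAT3KO than in WT, and Fpr1, Fpr2, Clec4d and Padi4 are higher, with the diamond among the other STAT3KO points for Fpr1, Clec4d, Padi4, Cebpe and Cebpd.

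Transcription factors of granulocyte development were compared next. Of 7 listed, 6 were tested, and in STAT3KO against WT 0 rose and 3 fell, where 29.2% of all tested genes rose and 14.8% fell. Cebpe, the factor required for specific granules, was 2.32, 1.87, 2.4 and 1.64 RPKM in STAT3KO, against 3.99, 6.54, 4.41 and 9.07 RPKM in TLR9KO and 12.4, 9.95 and 8.49 RPKM in WT. STAT3KO replicate 2, with the highest granule genes, had no more Cebpe than the rest of its group. Cebpe fell by 1.88 on the log2 scale in STAT3KO against WT (SE 0.22, limma adjusted p = 0.000118). In TLR9KO against WT its difference was -0.73 ± 0.22 (limma adjusted p = 0.0290), a call lost in 8 of 21 alternatives. Among them were the fits without WT replicate 1 (0.122) or 2 (0.0521) and without TLR9KO replicate 1 (0.0564) or 3 (0.0718). The GC and length correction (0.0709) was another. Cebpd (-0.59 ± 0.14, limma adjusted p = 0.00639) and Runx1 (-0.52 ± 0.14, 0.0123) also fell in STAT3KO against WT. In STAT3KO against TLR9KO the same genes fell and Cebpa rose, where 9.46% of all tested genes fell and 13.4% rose. The rise of Cebpa was 0.54 (limma adjusted p = 0.0261). That call was lost in 8 of 21 alternatives, among them median-ratio scaling (0.0743) and the fit without STAT3KO replicate 2 (0.0676). Gfi1 was at most 0.33 RPKM in every library.

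Downstream of Csf3r, 13 of 14 listed genes of G-CSF receptor signalling were tested, and in STAT3KO against WT 0 rose and 7 fell, where 29.2% of all tested genes rose and 14.8% fell. With the GC and length correction 5 genes fell, not all of them among these 7, where 1923 of all 10441 genes tested fell. Of the 7, Ptpn11 (limma adjusted p = 0.251), Stat5a and Tyk2 no longer passed. The call of Jak1 was lost in 3 of 21 alternatives and that of Shc1 in 8. Stat3 itself, the deleted gene, is among the 7. Socs3, which binds and silences the receptor, was 19.4, 24.1, 30.2 and 19.97 RPKM in STAT3KO, against 94.4, 106, 141 and 158 RPKM in TLR9KO and 107, 116 and 108 RPKM in WT. Its fall of 2.21 on the log2 scale (SE 0.19, limma adjusted p = 2.18e-05) set STAT3KO apart from both other groups, while Csf3r itself did not pass the test. Stat5a fell by 0.33 (limma adjusted p = 0.00611) and Tyk2 by 0.69 (0.0142), and neither passed with the GC and length correction (0.317 and 0.133). In TLR9KO against WT 0 rose and 2 fell, Ptpn11 and Shc1, where 20% of all tested genes rose and 10.6% fell. Neither Ptpn11 nor Shc1 passed with the GC and length correction (0.422 and 0.499). The call of Shc1 was lost in 15 of 21 alternatives, also without STAT3KO replicate 2 (0.0526), and that of Ptpn11 in 8. Without STAT3KO replicate 2, Gab2 fell beside Ptpn11 in this comparison, where 11.1% of all tested genes fell. In STAT3KO against TLR9KO 0 rose and 4 fell, Stat3, Socs3, Stat5a and Jak2, where 13.4% of all tested genes rose and 9.46% fell. Jak2 did not pass without STAT3KO replicate 2 (0.0518) or TLR9KO replicate 2 (0.0531). Csf3, the ligand, was at most 0.25 RPKM in every library.

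Beside Trem1, 11 genes of the TREM family and DAP12 signalling were tested, and in STAT3KO against WT 6 rose and 2 fell, where 29.2% of all tested genes rose and 14.8% fell. Trem2, a lipid receptor of macrophages that uses the same adaptor as Trem1, was 335, 342, 315 and 401 RPKM in STAT3KO, against 140.0, 105, 115 and 106 RPKM in TLR9KO and 110.3, 105 and 114 RPKM in WT. Tyrobp, which encodes DAP12, was 870.0, 882, 1049 and 1077 RPKM in STAT3KO, against 451, 602, 888 and 603 RPKM in TLR9KO and 414, 470 and 437 RPKM in WT. Where Trem1 fell, Trem2 thus rose by 1.65 ± 0.12 (limma adjusted p = 1.09e-05), and the adaptor by 1.13 ± 0.19 (0.000852). The scaffold gene Malt1 fell by 1.40 on the log2 scale (limma adjusted p = 0.000782), and Treml4 rose by 1.52 ± 0.25 (0.000708). With the GC and length correction 4 genes rose and 2 fell, where 2106 of all 10441 genes tested rose and 1923 fell. Without STAT3KO replicate 2, 5 rose and 2 fell, since Trem3 did not pass (0.0804). In that fit 28.2% of all tested genes rose and 13.6% fell. Card9 and Bcl10 rose and Plcg2 fell in TLR9KO against WT, where 20% of all tested genes rose and 10.6% fell. The call of Plcg2 was lost with the GC and length correction (0.159) and without WT replicate 2 (0.0539). That of Bcl10 was lost with median-ratio scaling (0.0557) and without WT replicate 1 (0.0778), and that of Card9 without WT replicate 1 (0.0543) or 3 (0.0558). In STAT3KO against TLR9KO 5 rose and 1 fell, where 13.4% of all tested genes rose and 9.46% fell. With the GC and length correction 2 rose and 2 fell, as Trem3 (0.101), Tyrobp (0.122) and Lat2 (0.106) no longer passed. Of all 10441 genes tested with it, 1045 rose and 1055 fell. Without STAT3KO replicate 2, Trem3 did not pass (0.0599) and 4 rose, where 10.3% of all tested genes rose. Syk was not analysed here.

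Of 11 other S100 genes 8 were tested. In STAT3KO against WT 6 rose and 1 fell, where 29.2% of all tested genes rose and 14.8% fell. S100a4, a calcium-binding protein linked to cell motility, was 605, 544, 684 and 590 RPKM in STAT3KO, against 308, 337, 298 and 218 RPKM in TLR9KO and 328, 371 and 263 RPKM in WT. S100a6 was 646, 729, 736 and 645 RPKM in STAT3KO, against 370, 372, 333 and 256 RPKM in TLR9KO and 350, 384 and 333 RPKM in WT. Unlike S100a8 and S100a9, these genes showed no excess in STAT3KO replicate 2, and all 4 STAT3KO libraries lay above all others, as for 30.8% of all tested genes against WT and 16.4% against TLR9KO. S100a6 rose by 0.95 ± 0.13 (limma adjusted p = 0.000318), S100a4 by 0.92 ± 0.16 (0.00107) and S100a10 by 0.70 ± 0.12 (0.00107), and S100a11 fell by 0.65 (0.00119). With the GC and length correction 1 of the 8 rose and 1 fell, where 2106 of all 10441 genes tested rose and 1923 fell. The limma adjusted p was then 0.114 for S100a4 and 0.185 for S100a10. None passed in TLR9KO against WT, where 20% of all tested genes rose and 10.6% fell. In STAT3KO against TLR9KO 4 rose and 1 fell, where 13.4% of all tested genes rose and 9.46% fell. There the call of S100a11, which fell, was lost in 10 of 21 alternatives, and those of S100a10 and S100a13 in 3 each.

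Receptors and partners of the neutrophil proteins were mostly low or lower. Of 6 listed, 3 were tested, and all 3 fell in STAT3KO against WT, where 14.8% of all tested genes fell. Tlr4, a receptor for S100a8 and S100a9, was 15.9, 15.2, 17.5 and 17.6 RPKM in STAT3KO, against 33.8, 26.9, 25.3 and 28.7 RPKM in TLR9KO and 22.1, 30.7 and 26.5 RPKM in WT. Its STAT3KO libraries lay below all others, a separation that 16.9% of all tested genes showed against WT and 10.6% against TLR9KO, with -0.64 ± 0.12 against WT (limma adjusted p = 0.00196) and -0.75 ± 0.11 against TLR9KO (0.00154). Pecam1 fell by 1.27 on the log2 scale against WT (limma adjusted p = 0.00836). Lrp1, an endocytic receptor that can bind lactoferrin, fell in STAT3KO by 0.47 (limma adjusted p = 0.0443), a call lost in 11 of 21 alternatives, among them the fit without STAT3KO replicate 2 (0.107) and the GC and length correction (0.873), and in TLR9KO by 0.70 (0.0104), also lost with that correction (0.283).

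The resistin relatives of Retnlg did not share its pattern. Retnla, a secreted product of alternatively activated macrophages, was 9.95, 11.1, 21.2 and 13.9 RPKM in STAT3KO, against 74.4, 41.9, 29.8 and 29.4 RPKM in TLR9KO and 15.5, 29.8 and 4.74 RPKM in WT. It was highest in TLR9KO, where Retnlg was lowest by its mean, with 1.54 ± 0.50 for TLR9KO minus WT (limma adjusted p = 0.0382) and -1.53 ± 0.47 for STAT3KO minus TLR9KO (0.0369). The first call was lost in 10 of 21 alternatives, among them the GC and length correction (0.182) and the fit without WT replicate 3 (0.145). The second was lost in 9 of 21, among them the fit without STAT3KO replicate 2 (0.0848), while its difference stayed at -1.73 to -1.24. Retnlb was listed at 0 in every library, and Retn was at most 0.18 RPKM.

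The genes most like 4 of the neutrophil genes were sought by Pearson's r of log2(RPKM + 1) over the 11 libraries among 7344 genes averaging 5 RPKM or more, as a description of libraries that share group and processing. For Ngp the nearest were Chi3l3 (0.942), Fkbp5 (0.941), Rps2 (0.913), 2310039H08Rik (0.904) and Polr2f (0.874). Over the 10 libraries without STAT3KO replicate 2 these r values were far lower, with 0.083 for Chi3l3 and 0.087 for Fkbp5, and none of the 5 stayed among the nearest 5. For S100a9 they were Cdt1 (0.912), Cirbp (0.911), Rbfa (0.894), Timm13 (0.880) and Trmt112 (0.876), of which Cdt1 had 0.817 without that library. For Csf3r they were Cd40 (0.869), Il21r (0.863), BC013712 (0.862), Hpse (0.846) and Lcp2 (0.843), and Cd40 had 0.821 without it. For Trem1 they were Eif2b2 (0.967), Fn1 (0.962), Phactr4 (0.961), Mnt (0.959) and Sh3pxd2b (0.958), and Fn1, which encodes fibronectin, had 0.962 without it.

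Among the 10 genes themselves, Ngp had an r of 0.997 with Camp, 0.993 with Ltf and 0.960 with Lcn2 over the 11 libraries, all of which rest on STAT3KO replicate 2. Over the other 10 libraries, in which Ngp stood for at most 43.2 reads and Camp for at most 6.3, the values were 0.893, 0.677 and 0.644. Ltf and Lcn2, the better measured pair, had 0.975 and 0.894. Csf3r and Trem1, both receptors of mature neutrophils, had -0.333 over those 10 libraries.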

How the data were processed

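Each file deposited by the authors lists RPKM by gene symbol for 1 library, per the file headers. For TLR9KO replicate 4 the header gives no unit, and RPKM was assumed. The submitters' processing notes name Partek, Bowtie 0.12.7, TopHat 1.3.1, CASAVA 1.7 and build mm9. How multi-mapped reads were counted, and with which annotation, is not given in the sources used here. Close relatives such as Chi3l3 or the Stfa genes may therefore share reads. No count model was used, since RPKM holds no counts. Depths were read from the RPKM steps of microRNA genes, and a 2 kb gene at 1 RPKM has 60 to 107 reads, a figure for counting error only.

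From the RPKM the authors deposited, log2(RPKM + 1) was computed with no other scaling, which makes changes of low genes look smaller. Groups were compared with limma 3.58.1 under R 4.3.3 (lmFit, contrasts, eBayes with trend). The model had 1 mean per group, used all 11 libraries and covered the 10557 symbols averaging 1 RPKM or more. Tests were two-sided, with Benjamini-Hochberg adjustment over those symbols. In simulated data 200 genes were changed. They were chosen above a minimum mean level, and the noise was normal with no outlying library. The shares found thus do not cover low genes with 1 outlying library, such as Ngp, Camp and Ltf. Of 4-fold changes 98% were found in each comparison. Of 2-fold changes 87% were found in STAT3KO minus WT (9.31% of calls false), 80% in TLR9KO minus WT (3.78%) and 89% in STAT3KO minus TLR9KO (4.1%). Other software was Python 3.11.15 (pandas 2.3.3, numpy 2.4.6, matplotlib 3.10.9).

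The 10 genes, the other lists and the tests were chosen with earlier results of these data known. All 10 genes are named. Some genes of the other lists are not reported here and enter none of those lists' counts or sums. Of each other list, up to 4 members with the smallest p in a comparison are named, with those near 0 or called when STAT3KO replicate 2 was left out. Genes named by their excess in STAT3KO replicate 2 were chosen after their values were seen, as were the alternatives run on the other lists. Alternatives changed the pseudocount, the filter, the scaling, the weights, the block and the libraries. The GC and length correction, a spline with 5 degrees of freedom, covered 98.9% of the tested genes.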

Additional observations from a re-analysis of the deposited data

Results flagged for a closer look

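Among the 22 groups of 4 libraries tested, a single library lay farther from its group than Dixon's 95% limit allows in 7. That limit flags about 1 in 20 single groups by chance. The 22 groups share libraries, their genes vary together, and the granule minus surface level is built from the same genes. The rate therefore does not apply to their count, and nothing is concluded from it. In 6 of the 7 it was STAT3KO replicate 2. It was the highest of its group for Ngp (95.0 RPKM), Camp (21.9 RPKM), Ltf (20.2 RPKM), Lcn2 (58.0 RPKM) and S100a8 (194 RPKM). Its granule minus surface level was 1.82 on the log2 scale, where the other 3 STAT3KO libraries lay at -3.28 to -2.51. The seventh was TLR9KO replicate 3, with the lowest Trem1 of its group at 7.57 RPKM, where the other 3 TLR9KO libraries had 16.2 to 18.5 RPKM.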

How the results depend on the processing

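Of 612 values of single neutrophil genes under alternatives, 568 kept their direction and side of the threshold, among them every value of Trem1. The count of neutrophil genes past the threshold, 1 against WT in each knockout, became 2 with a pseudocount of 0.1 in both, and in TLR9KO also with array weights and with a fit of these groups alone. Leaving out single libraries gave 1 to 3 in STAT3KO and 1 to 2 in TLR9KO. In STAT3KO against TLR9KO 3 neutrophil genes passed. There were 2 with no filter on low values, and 2 with the GC and length correction plus the replicate block. With a filter of 5 RPKM 2 passed of the 7 tested. The count over all genes in TLR9KO against WT, 3229, was 1652 with the GC and length correction, 1056 with that correction and the replicate block, and 1989 to 3595 without single libraries. In STAT3KO against TLR9KO it was 2409, 3807 with array weights and 1581 to 2709 without single libraries. Median-ratio scaling moved the median of all genes in STAT3KO against WT from 0.095 to -0.018. It also moved the split of higher against lower genes to 2167 and 2286 there (3083 and 1565 unscaled), to 1680 and 1544 in TLR9KO against WT (2107 and 1122) and to 919 and 1189 in STAT3KO against TLR9KO (1410 and 999). No list gene that passed changed sign in any alternative, and 204 of 1505 such values missed the threshold. The granule minus surface level was -4.30 in TLR9KO and -4.52 in WT with a pseudocount of 0.1, -2.91 and -3.40 in that order of groups without Lcn2, and -3.83 and -4.02 without Cd177.

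Some directions turned, and the cause was not tested. In STAT3KO against WT, Lcn2 was -0.0037 with a pseudocount of 0.1, -0.67 with array weights and -0.97 to 0.78 without single libraries. Csf3r was -0.11 with median-ratio scaling, -0.028 with quantile normalization, -0.088 with the replicate block and -0.16 to 0.22 without single libraries. In TLR9KO against WT, the block gave 0.13 for Camp and 0.015 for Ltf, and with the correction added 0.040 for Ltf. Without single libraries Camp ran from -0.12 to 0.024 and Ltf from -0.24 to 0.024. Nothing is read from these values, since Camp and Ltf pass the filter only through STAT3KO replicate 2, which also enters the fit with the block. S100a8 was -0.25 with the correction, -0.27 with correction and block, -0.12 with array weights and -0.42 to 0.85 without single libraries. S100a9 was -0.28, -0.39, -0.044 and -0.39 to 0.75 under the same settings. In STAT3KO against TLR9KO, Lcn2 ran from -0.24 to 1.5 and Csf3r from -0.34 to 0.034 without single libraries.

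No steady sign was seen that the shared replicate numbers pair the libraries, though those of replicate 1 correlated at 0.18 to 0.49. Deviations of same-numbered libraries correlated at -0.29 to 0.49, and 2 of 11 libraries correlated best with their own number. With the replicate block 1, 1 and 3 neutrophil genes passed in the 3 comparisons, as without it, and 4074, 2662 and 1879 of all genes. Low values set the limit for Ngp, Camp and Ltf, which outside STAT3KO replicate 2 rest on 0 to 85.7 reads.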
